A study of Homo sapiens with 5 samples.

Results

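The genes described here encode the serine/arginine-rich splicing factors (SR proteins) and the heterogeneous nuclear ribonucleoproteins (hnRNPs) of HEK293, an established cell line of human embryonic kidney origin. They were taken by symbol: every gene row named SRSF or HNRNP with a number or a letter code, leaving out 75 rows of pseudogenes. This gave 32 genes of the 24497 gene rows, 10 SR genes and 22 hnRNP genes; SRSF8 and SRSF10 are not analysed here. Counts in every library were deposited as 1 table, and the libraries select the 5′ ends of polyadenylated transcripts, primed with oligo-dT and read on an Ion Proton sequencer.

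Batch B held 3 libraries and batch A held 2. The labels name no treatment: both batches were HEK293 cells grown in serum-containing medium, with 1000 cells lysed in a buffer holding ERCC spike-in RNAs and the cDNA of 100 cells amplified for 18 cycles of PCR. Besides the batch, the labels of the batches differ in the prefix of the sample titles, whose meaning is not stated. The comparison asks how closely splicing-factor mRNA levels repeat between the batches. The labels do not say whether libraries came from separate cultures. The p-values below therefore reflect library-to-library spread alone, and that spread may be technical. In the reported edgeR fit the spread was pooled over genes, not taken from each gene alone. Libraries are named by the number that ends their column, 1, 2 and 3 in batch B and 2 and 3 in batch A.

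SR proteins carry RNA recognition motifs and a tail rich in arginine and serine; they bind enhancer sequences in exons and recruit the spliceosome, and their tail is phosphorylated by SRPK and CLK kinases. The hnRNPs coat nascent pre-mRNA, and many of them bind silencers and work against SR proteins at the same exons. Several members of both families shuttle to the cytoplasm, and many limit their own amount by splicing poison exons into their own mRNA, which is then removed by nonsense-mediated decay.

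The libraries held 373687, 575472 and 685181 gene counts in batch B and 686883 and 803168 in batch A. Levels are given as CPM, gene counts scaled to a library total of 1000000. With 3 counts as the upper limit of a 0, a gene without counts may still reach 8.03 CPM in batch B library 1 and 3.74 CPM in batch A library 3, which covers counting error only. Of 12 genes listed as markers of HEK293 cells, 11 were in the table and all 11 had counts, with a summed level of 1100 to 1180 CPM in batch B and 948 to 996 CPM in batch A. By mean over the libraries, VIM at 481 CPM and IGF2BP1 at 192 CPM were highest. PAX2 at 2.46 CPM and INA at 8.48 CPM were lowest, under the 11 CPM of COL1A1, a fibroblast marker. Markers of blood cells came to 22 counts over all libraries with CD3E at 0, those of fibroblasts and endothelium to 42 with COL1A2, PDGFRB and VWF at 0, and those of hepatocytes to 13 with ALB at 0. Only 6 of 10 listed blood markers, 7 of 10 of fibroblasts and endothelium and 3 of 6 of hepatocytes had a row. ERCC counts were 1 to 19 per library in batch B and 1785 to 2127 in batch A, although the labels give both batches the same ERCC amount. Mitochondrially encoded genes took 3.77% to 5.39% of gene counts in batch B and 2.97% to 3.25% in batch A. The part of these differences in the values of single genes was not tested.

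Because the libraries select 5′ ends, the region around each gene's annotated start was taken as reference sequence. The bases before that start are promoter sequence and are not part of the transcript that begins there. RefSeq promoter windows on GRCh38.p14, from 250 bases before to 50 bases after an annotated start, were found for 30 of the 32 genes, in 43 windows. HNRNPA1 and SRSF2 had no window. The windows had a median GC content of 65% (range 45.3% to 77%), against 58.7% over all 35116 windows, and a median of 29 CpG dinucleotides, against 14 over all windows.

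The pentamer CCAAT, searched on both strands and therefore also read as ATTGG, was found at different shares in the windows of the families. It was present in 18 of the 21 hnRNP genes with a window (85.7%), all but HNRNPA1L2, HNRNPD and HNRNPM. Of the 9 SR genes with a window it was present in 1, SRSF3 (11.1%). Over all 27305 genes with a window it was present in 39.7%. By window it was in 20 of 32 for hnRNP genes and in 1 of 11 for SR genes, against 34.6% of all windows; no test was made of this difference. The hexamer TATAAA, on both strands, was in 6 of the 43 windows (14%), against 11.5% of all windows, and GGGCGG, on both strands, was in 28 windows (65.1%), against 45% of all windows. These are matches of letters and not measured binding sites.

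The 120 bases before the start are shown for 6 genes with a single window. HNRNPA0 and HNRNPUL2 had an edgeR adjusted p under 0.05 between the batches, but not under most of the other settings given below. HNRNPA2B1 and HNRNPC were the most abundant hnRNPs with a window. SRSF3 is the SR gene with the pentamer, and SRSF1 the best studied one without it. Capitals mark CCAAT on either strand, each line runs 5′ to 3′ on the gene's strand, and the stretches lie at chr5:137754364-137754483 (minus strand), chr11:62727458-62727577 (minus strand), chr7:26200747-26200866 (minus strand), chr14:21269443-21269562 (minus strand), chr6:36594242-36594361 (plus strand) and chr17:58007247-58007366 (minus strand) of GRCh38.p14.
HNRNPA0: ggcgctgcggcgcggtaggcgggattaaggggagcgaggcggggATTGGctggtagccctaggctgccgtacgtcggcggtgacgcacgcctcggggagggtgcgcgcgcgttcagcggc
HNRNPUL2: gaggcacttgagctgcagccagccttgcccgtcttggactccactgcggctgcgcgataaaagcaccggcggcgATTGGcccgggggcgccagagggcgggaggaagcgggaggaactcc
HNRNPA2B1: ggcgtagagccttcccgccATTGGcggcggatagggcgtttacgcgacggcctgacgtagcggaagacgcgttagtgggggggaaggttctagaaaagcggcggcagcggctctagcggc
HNRNPC: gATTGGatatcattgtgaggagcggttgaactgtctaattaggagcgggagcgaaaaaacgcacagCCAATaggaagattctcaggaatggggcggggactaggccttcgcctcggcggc
SRSF3: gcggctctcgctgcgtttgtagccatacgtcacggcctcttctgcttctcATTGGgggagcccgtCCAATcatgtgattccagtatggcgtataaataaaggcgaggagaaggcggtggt
SRSF1: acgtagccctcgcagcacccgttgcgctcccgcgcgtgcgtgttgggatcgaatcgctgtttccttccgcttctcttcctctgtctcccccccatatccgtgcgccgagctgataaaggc

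Both families were abundant in every library. The 30 members that passed the low-count filter had a median level of 319 CPM, against 45.9 CPM over all 9215 tested genes, and 20 of them were among the 1000 most abundant genes. In such pools of cells, fewer cells with a transcript and less of it per cell cannot be told apart. The SR genes had a median of 274 CPM and the hnRNP genes 335 CPM. CPM here is not divided by transcript length, since each molecule contributes its 5′ end. Values per kilobase are given below and are not levels for such counts. HNRNPA1L2, a gene close in sequence to HNRNPA1, had 0, 0 and 2 counts in batch B and 5 and 5 in batch A, HNRNPCL1 had 0 in all 3 batch B libraries and 0 and 1 in batch A, and neither was tested.

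**Figure D1:**
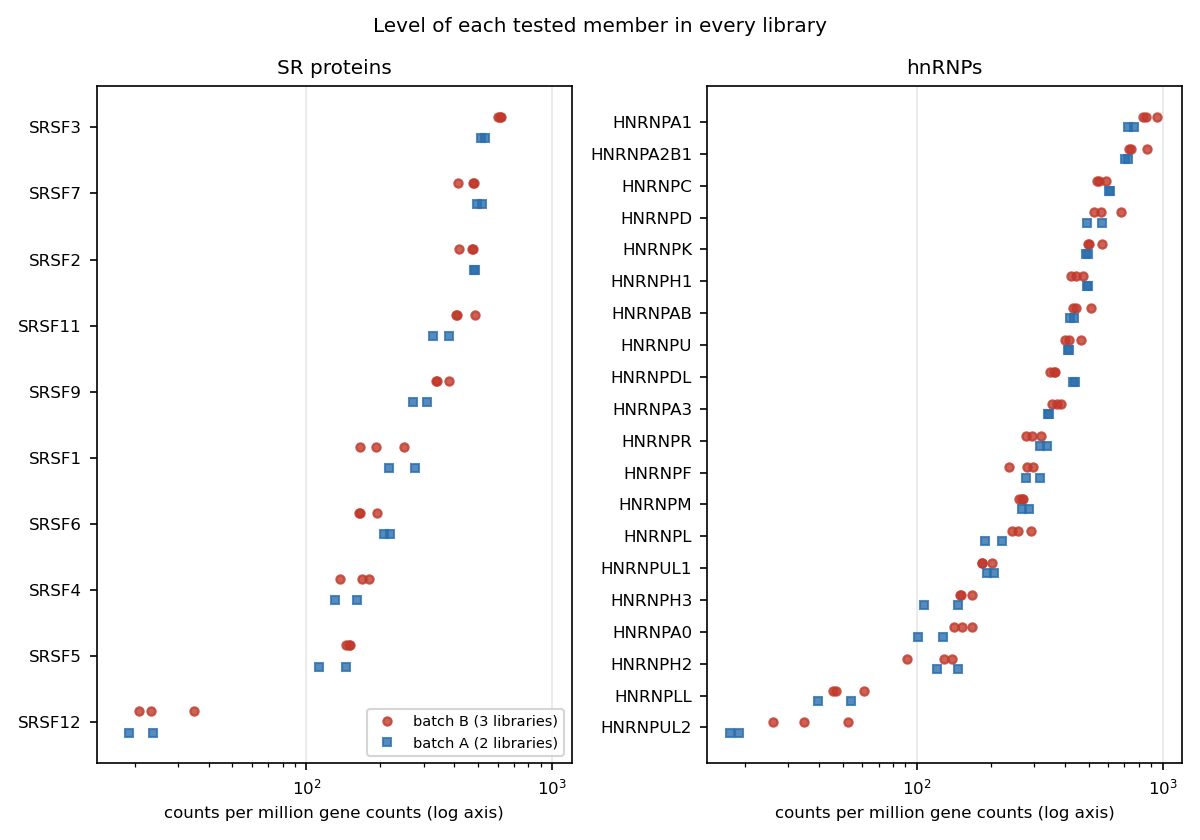
Level of each of the 30 tested members in every library, in CPM on a log axis, with SR genes on the left and hnRNP genes on the right, each ordered by mean level; circles are the 3 batch B libraries and squares the 2 batch A libraries. Levels run between 24.3 CPM for SRSF12 and 826 CPM for HNRNPA1, and the batches lie close together beside that range.

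Among SR genes, SRSF3 was the most abundant. SRSF3, which acts in splicing, polyadenylation-site choice and mRNA export, had 232, 345 and 419 counts in batch B and 367 and 413 in batch A, or 611 ± 10.7 CPM and 524 ± 14.2 CPM (SD, n = 3 and n = 2). All batch B libraries lay above both batch A libraries. SRSF7, its closest relative and a fellow adaptor of the export receptor NXF1, had 155, 275 and 328 counts in batch B and 357 and 397 in batch A, or 457 ± 36.7 CPM and 507 ± 18 CPM. All batch B libraries lay below both batch A libraries.

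SRSF2, a nuclear SR protein that binds exonic enhancers, had 177, 240 and 325 counts in batch B and 329 and 391 in batch A (455 ± 32.9 and 483 ± 5.55 CPM). SRSF11, which is less well characterized, had 182, 233 and 282 counts in batch B and 224 and 306 in batch A (434 ± 45.6 and 354 ± 38.8 CPM). SRSF9 had 142, 196 and 231 counts in batch B and 212 and 219 in batch A (353 ± 23.8 and 291 ± 25.4 CPM). In SRSF11 and SRSF9 the batch B libraries were all higher, and in SRSF2 they were all lower on the CPM scale but overlapped with batch A after TMM scaling.

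SRSF1, the founding SR protein and a proto-oncogene product, had 62, 110 and 171 counts in batch B and 149 and 223 in batch A (202 ± 42.9 and 247 ± 42.9 CPM). Its libraries overlapped, and it was the member whose libraries differed most within batches: the chi-square per degree of freedom of its counts was 5.01, where counting error alone gives a value around 1. SRSF6, which like SRSF4 and SRSF5 binds exonic enhancers, had 61, 112 and 113 counts in batch B and 142 and 175 in batch A (174 ± 17.7 and 212 ± 7.89 CPM), with all batch B libraries lower. SRSF4 and SRSF5 had means of 155 and 140 CPM over the 5 libraries, and SRSF12 was the rarest tested member at 24.3 CPM.

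Counts were unevenly spread within both families. The 3 most abundant of the 10 SR genes held 51.2% of SR counts, 1.71 times the 30% of an even split. The 3 most abundant of the 22 hnRNP genes held 30.1% of hnRNP counts, 2.21 times the 13.6% of an even split. That split counts HNRNPA1L2 and HNRNPCL1, the 2 lowest hnRNP genes, which held 0.0588% of hnRNP counts. As the families differ in size, these ratios do not compare how concentrated they are.

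HNRNPA1 was the most abundant member and ranked 158 among all genes. It is the archetypal hnRNP, a shuttling protein that binds splicing silencers. It had 354, 480 and 585 counts in batch B and 499 and 617 in batch A, or 878 ± 60.5 CPM and 747 ± 29.5 CPM, with all batch B libraries higher. Its pseudogenes, which may share reads with it, had 198 counts beside its 2535. HNRNPA2B1, its close paralog, had 324, 420 and 508 counts in batch B and 496 and 563 in batch A (779 ± 76.1 and 712 ± 14.9 CPM). Its batch B libraries were also all higher, although the lowest of them, at 730 CPM, and the higher batch A library, at 722 CPM, lay closer together than the SD of either batch. HNRNPA3, another relative, had 144, 205 and 255 counts in batch B and 236 and 278 in batch A (371 ± 14.6 and 345 ± 1.8 CPM), with batch B higher in all libraries.

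HNRNPC, a nuclear protein that binds uridine tracts and packages pre-mRNA, had 220, 311 and 377 counts in batch B and 415 and 493 in batch A (560 ± 25.5 and 609 ± 6.82 CPM). Its batch B libraries were all lower in CPM, and overlapped with batch A after TMM scaling. HNRNPD, also called AUF1, binds AU-rich elements and takes part in mRNA decay; it had 254, 322 and 362 counts in batch B and 391 and 396 in batch A (589 ± 79.9 and 531 ± 53.9 CPM). HNRNPDL, its paralog, had 137, 200 and 248 counts in batch B and 302 and 347 in batch A (359 ± 9.94 and 436 ± 5.39 CPM). HNRNPDL was lower in every batch B library, and HNRNPD overlapped.

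HNRNPK, which binds cytidine-rich RNA through KH domains, had 186, 325 and 345 counts in batch B and 334 and 400 in batch A (522 ± 37.1 and 492 ± 8.32 CPM). HNRNPH1, which binds guanosine tracts, had 178, 257 and 292 counts in batch B and 341 and 396 in batch A (450 ± 25.2 and 495 ± 2.4 CPM). HNRNPAB, which is related to HNRNPD, had 192, 257 and 297 counts in batch B and 301 and 337 in batch A (465 ± 43.1 and 429 ± 13.2 CPM). HNRNPK and HNRNPAB overlapped between batches in CPM, and HNRNPK was higher in every batch B library after TMM scaling. HNRNPH1 was lower in every batch B library in CPM and overlapped after TMM scaling. HNRNPU, a nuclear matrix and chromatin-associated protein, had 150, 240 and 319 counts in batch B and 285 and 332 in batch A (428 ± 33.5 and 414 ± 1.1 CPM); it overlapped in CPM and was higher in every batch B library after TMM scaling. Its antisense gene HNRNPU-AS1 had 8, 24 and 35 counts in batch B and 31 and 33 in batch A, and whether the counting used strand is not given in the sources used here.

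The other tested hnRNP genes had means over the 5 libraries of 310 CPM for HNRNPR, 282 for HNRNPF, 271 for HNRNPM, 241 for HNRNPL, 194 for HNRNPUL1, 145 for HNRNPH3, 139 for HNRNPA0, 125 for HNRNPH2, 49.5 for HNRNPLL and 30 for HNRNPUL2. Neighbours in the order of levels mostly did not differ beyond their spread. Of the 31 pairs of adjacent members, 3 did not overlap in any library: HNRNPA2B1 above HNRNPC, HNRNPH2 above HNRNPLL, and SRSF12 above HNRNPA1L2. Compared within each library, the first gene of the pair was higher in all 5 libraries in 6 pairs, these and HNRNPA1 above HNRNPA2B1, HNRNPA3 above SRSF9 and HNRNPLL above HNRNPUL2. Per kilobase of the main annotated transcript the order differed: HNRNPC came first at 338 CPM per kb, followed by SRSF9 at 273, HNRNPAB at 251, HNRNPA2B1 at 215 and HNRNPA1 at 200. As counts of 5′ ends do not grow with transcript length, that order is not one of abundance.

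Levels of single members repeated closely between libraries. The ratio of the highest to the lowest library had a median of 1.32 and was under 1.5 in 22 of the 30 tested members. Within batches, the chi-square per degree of freedom had a median of 1.02, against 0.977 over all tested genes and 1.06 over 1280 genes whose mean count reached 100. It was above 2 in 5 members, SRSF1 at 5.01, HNRNPD at 4.68, SRSF11 at 2.44, HNRNPA2B1 at 2.25 and HNRNPH2 at 2.14, and in 18.3% of all tested genes.

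Summed over each family, the shares of all gene counts were steady. SR genes took 0.307%, 0.293% and 0.307% of gene counts in batch B and 0.285% and 0.297% in batch A, which overlapped. The hnRNP genes took 0.746%, 0.713% and 0.706% in batch B and 0.7% and 0.694% in batch A. Every batch B library was above both batch A libraries, but the exact Clopper-Pearson 95% interval of the lowest, 0.686% to 0.726%, held both batch A values. With mitochondrially encoded genes left out of the total, the difference of batch B minus batch A was 0.0157 percentage points for SR genes and 0.0362 for hnRNP genes, against 0.0108 and 0.0246 with them. The ratio of hnRNP to SR counts was 2.43, 2.43 and 2.3 in batch B and 2.45 and 2.33 in batch A, and overlapped.

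**Figure D2:**
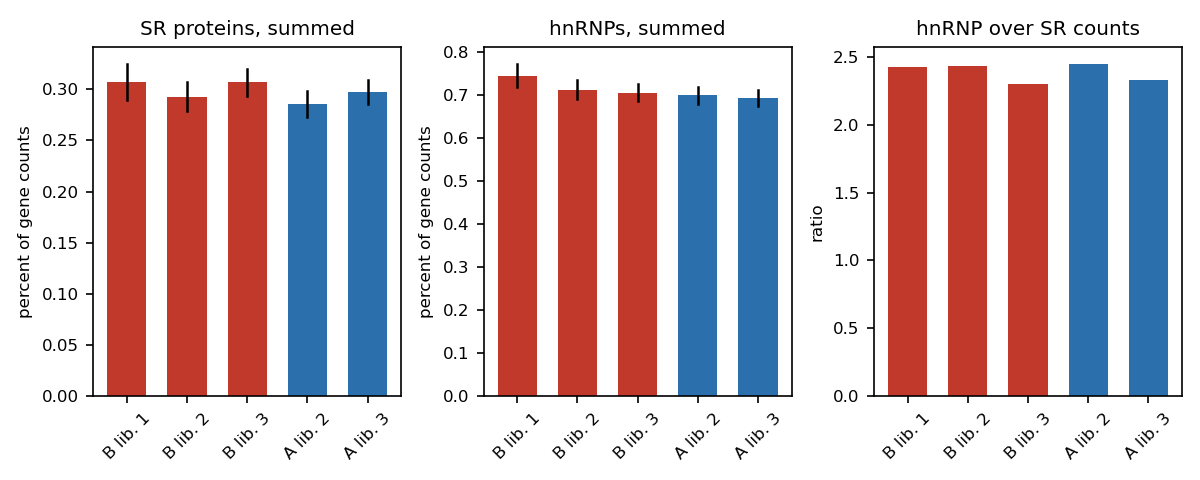
Share of gene counts taken by all SR genes and by all hnRNP genes in each library, in percent, and the ratio of hnRNP to SR counts; bars are single libraries, with batch B left of batch A, and lines are exact 95% binomial intervals that cover counting error only. The ratio lies between 2.3 and 2.45 in all 5 libraries.

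The batches were compared gene by gene with edgeR's quasi-likelihood test, fitted on all 9215 genes that passed the low-count filter, with Benjamini-Hochberg adjusted p under 0.05 as a call. HNRNPUL2 and HNRNPA0 were the members called, both higher in batch B, so 2 of 30 tested members were called, against 4.2% of all tested genes in either direction. The share of all genes called higher in batch B was 2.15%, and of those called lower 2.05%; 0 members were called lower and 0 of the 10 SR genes were called in either direction, with 4 SR genes at an unadjusted p under 0.05. DESeq2 called 0 of the 27 members it gave an adjusted p, against 111 of 3150 genes (3.52%). With DESeq2, an unadjusted p under 0.05 was found in 7 of those 27 members, and in 479 of those 3150 genes (15.2%).

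HNRNPUL2, a protein related to HNRNPU, had 13, 15 and 36 counts in batch B and 13 and 14 in batch A, or 37.8 ± 13.5 CPM and 18.2 ± 1.06 CPM. The groups did not overlap in CPM, and batch B library 3 stood highest at 52.5 CPM. Its log2 fold change of batch B over batch A was 1.11 (SE 0.36, edgeR adjusted p = 0.0469), a fold of 2.16 with a 95% interval of 1.33 to 3.52. The call rests on 91 counts in all and was lost without batch B library 1 (log2 fold change 1.15, adjusted p = 0.0557), batch B library 3 (0.75, 0.429), batch A library 2 (1.19, 0.170) or batch A library 3 (1.03, 0.290). HNRNPUL2 overlaps the readthrough gene HNRNPUL2-BSCL2, whose row had 0 counts in all libraries.

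HNRNPA0, a relative of HNRNPA1 that binds AU-rich elements, had 53, 97 and 105 counts in batch B and 88 and 81 in batch A, or 155 ± 13.4 CPM and 114 ± 19.3 CPM. The batch B libraries, at 142, 169 and 153 CPM, lay above the batch A libraries at 128 and 101 CPM. Its log2 fold change was 0.48 (SE 0.15, edgeR adjusted p = 0.0460), a fold of 1.39 with a 95% interval of 1.13 to 1.72. The call was lost without batch B library 2 (log2 fold change 0.41, adjusted p = 0.220), batch B library 3 (0.52, 0.0683) or batch A library 3 (0.29, 0.596).

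**Figure D3:**
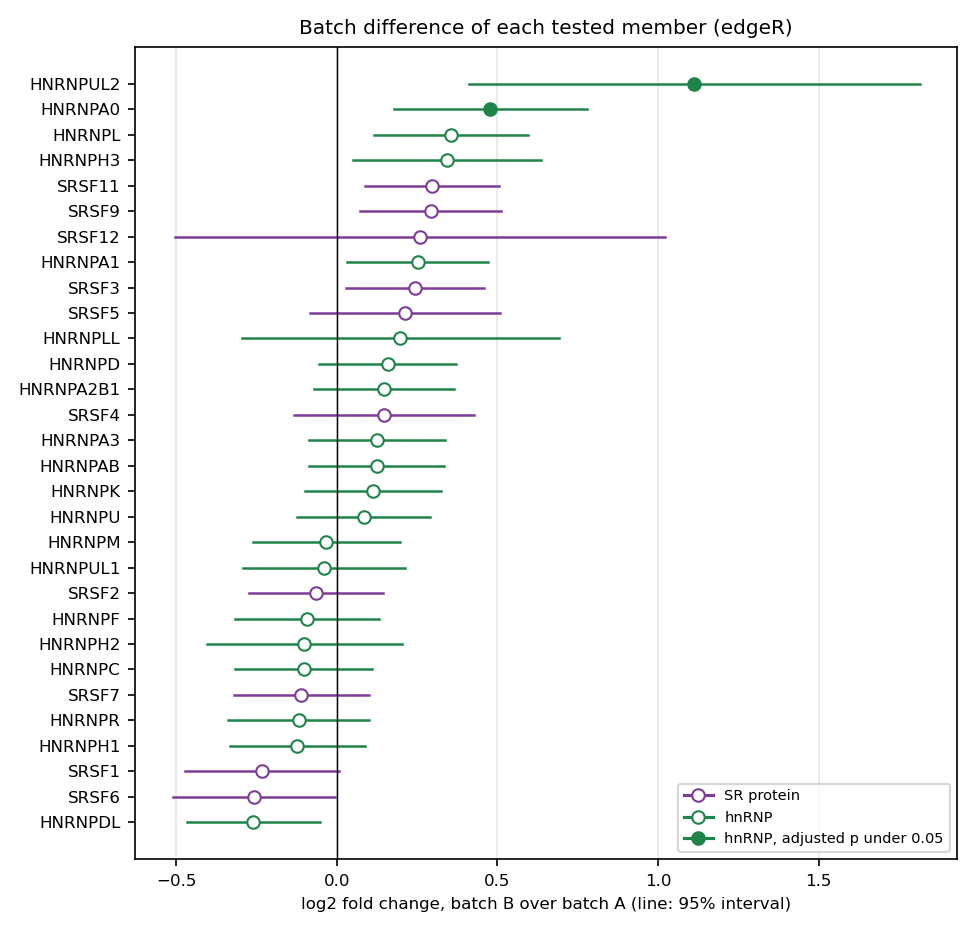
Log2 fold change of batch B over batch A for the 30 tested members, with 95% intervals from the edgeR fit; filled circles mark the 2 members with an adjusted p under 0.05, and colour separates SR genes from hnRNP genes. The values run between -0.26 for HNRNPDL and 1.11 for HNRNPUL2, and most intervals include 0.

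The remaining members did not pass the test. HNRNPL, which binds CA repeats, had 109, 148 and 168 counts in batch B and 130 and 179 in batch A, and its log2 fold change was 0.36 (SE 0.12, adjusted p = 0.0716). It was followed by HNRNPH3 at 0.34 (adjusted p = 0.198), SRSF11 at 0.30 (0.0889), SRSF9 at 0.29 (0.123), SRSF12 at 0.26 (0.813), HNRNPA1 at 0.25 (0.212) and SRSF3 at 0.24 (0.218). At the other end, the log2 fold changes were -0.26 for HNRNPDL (SE 0.11, adjusted p = 0.156), -0.26 for SRSF6 (SE 0.13, adjusted p = 0.290) and -0.23 for SRSF1 (SE 0.12, adjusted p = 0.326). Those of the remaining members lay between -0.12 for HNRNPH1 and 0.21 for SRSF5.

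The median log2 fold change was 0.12 over the 30 tested members, 0.18 over the SR genes and 0.12 over the hnRNP genes, against 0.00 over all tested genes. It was 0.03 over the 22 members whose mean count reached 100, 11 of them positive and 11 negative, and -0.03 over the 1280 genes of that abundance. An unadjusted p under 0.05 was found in 10 of 30 members (33.3%), 8 higher and 2 lower, in 16.4% of all tested genes, and in 398 of those 1280 more abundant genes (31.1%), 168 higher and 230 lower. The libraries of the batches did not overlap in CPM in 16 of 30 members, 10 higher and 6 lower in batch B, against 31.3% of all tested genes and 50.5% of the 1280 more abundant ones. Of all tested genes that did not overlap, 1246 were higher and 1636 lower in batch B, and of the more abundant ones 229 were higher and 417 lower. The split over all 30 members was the other way round. Over the 22 members whose mean count reached 100 it was nearly even, at 7 higher and 6 lower. After TMM scaling the number was again 16 of the 30 members, against 31.1% of all tested genes. Of these 16 members, 13 were higher and 3 lower in batch B. They were not the same members as in CPM: SRSF2, HNRNPC and HNRNPH1 no longer separated, and SRSF5, HNRNPK and HNRNPU did. On the TMM scale, the directions over all genes and the share of the 1280 more abundant genes are not available here. The split of 13 to 3 therefore has no background beside it. Of the 22 members whose mean count reached 100, 7 (31.8%) had an unadjusted p under 0.05 in the edgeR test and 13 (59.1%) did not overlap in CPM. Over the 1280 genes these shares were 31.1% and 50.5%. Both shares of these members were near that background, without regard to direction. Of the 22 members of that abundance, 0 were called, against 156 of the 1280 genes. The 95% interval lay within a log2 fold change of 1 in either direction for 28 members and within 0.5 for 20. Across the 30 members, Spearman's rho of the log2 fold change was 0.18 with transcript length, -0.10 with transcript GC content and -0.23 with mean CPM, as a description over genes that share the same libraries.

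Ratios between paralogs within a library do not depend on its depth. The ratio of SRSF3 to SRSF7 counts was 1.5, 1.25 and 1.28 in batch B and 1.03 and 1.04 in batch A. The ratio of HNRNPD to HNRNPDL counts was 1.85, 1.61 and 1.46 in batch B and 1.29 and 1.14 in batch A. In both pairs all batch B libraries had the higher ratio, and SRSF3 or HNRNPD had more counts than its paralog in all 5 libraries. HNRNPU had 11.5, 16 and 8.86 counts per HNRNPUL2 count in batch B and 21.9 and 23.7 in batch A. HNRNPA1 and HNRNPA2B1 were nearly level, at 1.09, 1.14 and 1.15 in batch B and 1.01 and 1.1 in batch A. HNRNPH1 exceeded HNRNPF, which also binds guanosine tracts, by 2, 1.5 and 1.52 times in batch B and 1.79 and 1.55 times in batch A. These pairs were picked with their values known and were not tested.

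Genes that act beside the members were mostly not called either; over all tested genes 4.2% were called and 16.4% had an unadjusted p under 0.05. Among proteins with arginine/serine-rich regions outside the SRSF family, 1 of 22 tested was called: SRRM2, a scaffold of nuclear speckles, had 51, 98 and 98 counts in batch B and 61 and 91 in batch A (log2 fold change 0.59, edgeR adjusted p = 0.00999). Among RNA-binding proteins counted with the hnRNPs under other names, 2 of 22 were called, both higher in batch B. KHSRP, which binds AU-rich elements, had 140, 188 and 216 counts in batch B and 159 and 203 in batch A (log2 fold change 0.49, adjusted p = 0.00208). PCBP2, which binds cytidine-rich RNA, had 202, 321 and 359 counts in batch B and 298 and 350 in batch A (log2 fold change 0.34, adjusted p = 0.0469). Without batch A library 2, SRRM2 (log2 fold change 0.46, adjusted p = 0.263), KHSRP (0.45, 0.0860) and PCBP2 (0.36, 0.238) were not called; without batch B library 2, SRRM2 (0.49, 0.146) and PCBP2 (0.31, 0.206) were not, and PCBP2 was also lost without batch B library 1 (0.32, 0.0671) or batch A library 3 (0.32, 0.326). The median log2 fold changes of these 2 lists were 0.05 and 0.09, against 0.00 over all tested genes.

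Of the kinases that phosphorylate SR proteins 0 of 7 were called, with a median log2 fold change of -0.11; SRPK1 averaged 113 ± 6.32 CPM in batch B and 139 ± 2.72 CPM in batch A, and CLK1 29.2 ± 3.37 and 43.2 ± 7.57 CPM. None of the 7 kinases had an unadjusted p under 0.05. Their log2 fold changes ran from -0.54 for CLK1 to 0.14 for CLK2, 2 being positive and 5 negative. Of the genes for import, export and methylation of these proteins 0 of 17 were called, 2 having an unadjusted p under 0.05, and of the genes of nonsense-mediated decay 0 of 14 were called, 0 having an unadjusted p under 0.05. Their median log2 fold changes were 0.08 and -0.08. Among the HEK293 markers 1 of 9 tested was called, IGF2BP1 (log2 fold change 0.60, adjusted p = 0.000783; 0.47 and 0.140 without batch A library 2).

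Which members were called depended on the processing. Over 15 other settings and samples left out, HNRNPA0 was called in 6, and HNRNPUL2 in 3 of the 13 that gave it an adjusted p. HNRNPL, SRSF11 and SRSF9 were called under at least 1 of them, all higher in batch B, and the other 25 tested members under none.

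**Figure D4:**
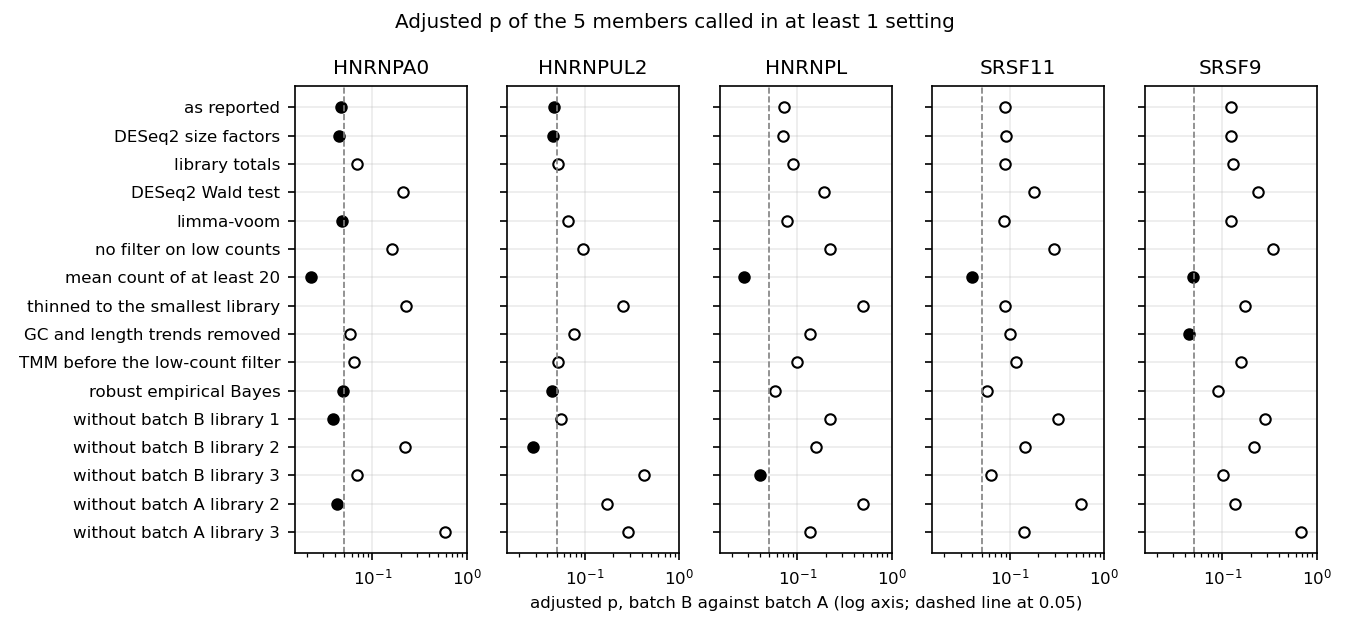
Adjusted p of the 5 members that were called under at least 1 setting, on a log axis with the threshold of 0.05 as a dashed line; each row is a setting or a library left out, and filled circles lie under the threshold. HNRNPA0 has 7 filled circles and HNRNPUL2 has 4, the reported fit included, and a missing circle means that no adjusted p was given.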

How the data were processed

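The values are whole-number counts per gene and library, as deposited by the authors in 1 table with 24497 gene rows and 52 ERCC rows. The submitters' processing notes, that is, per the labels, name the tools STAR 2.4.0a and cutadapt 1.2.1 and the builds hg19 and GRCh37. Not given in the sources used here are the counter, the gene annotation, the use of strand and the collapse of molecular identifiers; without collapse, intervals understate the error. Each column was placed in a batch by the start of its name, which the sample titles share, and ERCC rows were left out of library sizes.

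CPM was computed from gene counts. The test of batch B against batch A was edgeR's (version 4.0.16, R 4.3.3; filterByExpr, TMM, quasi-likelihood test, batch as the only term), adjusted over 9215 genes. The prior degrees of freedom were infinite, so every gene was tested against the spread pooled over genes. DESeq2 1.42.0 and limma 3.58.1 gave alternatives. Where 1 batch A library was left, it was assumed to vary like the others.

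The members and lists were chosen with earlier results of these data known. Members named with full values are those called, the 6 SR and 10 hnRNP genes of highest CPM, and the 3 largest log2 fold changes in each direction; others are named after their values were seen. Transcript lengths came from GENCODE release 29, matched by name for all 32 members, and promoter windows from RefSeq, on another build than the counts, so counts have no coordinates here. Reads of HNRNPA1, HNRNPA1L2 and their pseudogenes, and of other paralogs, may be shared between rows.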

Additional observations from a re-analysis of the deposited data

How the results depend on the processing

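The number of members called, 2 and both higher in batch B, was 2 with DESeq2 size factors and with robust empirical Bayes, 0 with library totals, the DESeq2 Wald test, no filter on low counts, thinning to the smallest library or TMM before the low-count filter, 1 with limma-voom or with GC and length trends removed, and 4 with a mean count of at least 20; leaving out each library gave 0 to 1. The number called lower was 0 throughout. Over all genes, where 387 were called, DESeq2 called 111, thinning 225, removal of GC and length trends 175, no batch A library 2 138, no batch A library 3 152 and no batch B library 2 202. The median log2 fold change of the members was 0.21 with GC and length trends removed and 0.061 to 0.15 with a library left out. With those trends removed the log2 fold changes of HNRNPC (0.080) and SRSF2 (0.0065) changed sign; neither was called. The cause was not tested. Of 298 values of named members under an alternative, 272 kept their direction and side of the threshold, 19 lost a call and 5 gained one. All 19 lost calls were of HNRNPA0 and HNRNPUL2. The other named members were not called in the reported fit, so those that kept their side did so by staying uncalled. HNRNPA0 had log2 fold changes of 0.29 to 0.67 and adjusted p of 0.0221 to 0.596, and HNRNPUL2 0.75 to 1.35 and 0.0282 to 0.429. PCBP2 was called in 7 of 15 alternatives, SRRM2 in 11 and KHSRP in 13. TMM before the filter and robust empirical Bayes were chosen after seeing the data. No paired analysis was possible because the labels do not say that equal replicate numbers share a source across batches. The batch A columns also end in numbers other than the labels' replicate numbers. With 3 libraries against 2 and few counts, HNRNPUL2, SRSF12 and HNRNPLL are the members least precisely measured.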

Other observations

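The 75 pseudogene rows left out of the families held 258 counts over the 5 libraries, equal to 0.822% of the members' 31381 counts. Pseudogenes of HNRNPA1 made up 45 of these rows and 198 of these counts, equal to 7.81% of the 2535 counts of HNRNPA1. HNRNPA1P48 had 19, 35 and 41 counts in batch B and 9 and 13 in batch A (57.2 ± 5.5 and 14.6 ± 2.18 CPM). Its log2 fold change was 1.98 (SE 0.33, edgeR adjusted p = 7.02e-07), and it was called in all 14 alternatives that gave it an adjusted p, at 1.88 to 2.16. HNRNPA1P7 had 3, 2 and 4 counts in batch B and 8 and 10 in batch A, with batch A higher in every library. HNRNPA1 and these copies may share reads, and the part of that in their values was not tested.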
